A study of Mus musculus with 9 samples.

Results

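The genes described here are 38 enzymes, or direct regulators of enzymes, of glucose breakdown. They were taken by gene symbol from a list of glycolysis and citric acid cycle genes, out of 53465 genes in the deposited count table. The rule names genes and uses no threshold on their values. All 38 were found and all passed the filter on low counts that left 12610 genes. Of these, 20 act in glycolysis and 18 in pyruvate dehydrogenase or the citric acid cycle.

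Glycolysis splits glucose into pyruvate in the cytosol, and lactate dehydrogenase converts pyruvate and lactate into each other. Pyruvate dehydrogenase feeds the carbon into the citric acid cycle in mitochondria, which supplies the respiratory chain. Macrophages are known to shift between these routes with activation and oxygen supply, and many glycolytic genes are targets of the hypoxia-inducible factors HIF-1 and HIF-2.

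Polyadenylated RNA was sequenced from 3 groups of mouse macrophages with 3 libraries each, as 101 bp single-end reads of stranded libraries made from 500 ng RNA. Lining macrophages (libraries A, B and C) were CD45+CD11b+F4/80+GFP+ cells sorted from hind paw synovial tissue of healthy Cx3cr1-GFP mice, in which GFP reports the fractalkine receptor gene Cx3cr1. Interstitial macrophages (libraries D, E and F) were the CD45+CD11b+F4/80+GFP- cells from the same tissue and strain. Bone marrow-derived macrophages (BMDM, libraries G, H and I) were grown from C57BL/6 marrow for 5 days in medium conditioned with the growth factor M-CSF, with no GFP allele or sort named in their labels. The labels give no age or sex and do not say whether libraries of a group came from separate animals or cultures, so p-values measure the spread between libraries, which may be technical. It is also not said whether lining and interstitial libraries were sorted from the same animals, and the tests treat them as unpaired. BMDM differ from the sorted cells in strain, tissue, culture and sorting at once, and these cannot be told apart.

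Libraries held from 2194920 to 22499823 counts, and the 6 sorted libraries were shallower (up to 11137451) than the BMDM libraries (from 19427273). Cx3cr1 was at 687, 775 and 663 CPM (counts put on one library size by TMM) in lining libraries, against 2.66, 4.28 and 7.86 in interstitial libraries, so the sort gate is visible in the counts. The pan-macrophage receptor gene Csf1r was at 4061 CPM or more in every sorted library. The summed CPM of 10 skeletal muscle genes, whose tissue is rich in these enzymes, lay between 16.9 and 28.2 in the sorted libraries and between 10.9 and 14.0 in BMDM. Interstitial F stood apart from interstitial D and E in the members described here, so results that rest on it are given with and without it. In such bulk samples, fewer cells of a type and less RNA per cell cannot be told apart.

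The promoters of 6 members are shown because the results below describe these genes and because each holds short cores that HIF factors are known to bind. Being chosen for the cores, they do not stand for all members. The first windows of Pkm, Aldoa and Hk1, which were called against BMDM, held none. Of those shown, Ldha, Pgk1 and Pgam1 were called by edgeR in no comparison of all 9 libraries. Capitals mark the cores ACGTG and GCGTG on either strand, so CACGT and CACGC are their reverse complements. The E-box CACGTG holds the first core on both strands. Each stretch is cut from the first RefSeq window listed for the gene (GRCm38.p6, the same build as the counts), reads 5′ to 3′ on the gene's strand and lies upstream of the annotated start.
Ldha: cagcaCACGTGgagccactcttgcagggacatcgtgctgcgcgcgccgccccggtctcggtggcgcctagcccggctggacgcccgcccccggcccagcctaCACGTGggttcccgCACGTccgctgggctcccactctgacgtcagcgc
Pgk1: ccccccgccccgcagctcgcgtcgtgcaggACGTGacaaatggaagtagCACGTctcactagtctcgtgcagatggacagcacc
Pgam1: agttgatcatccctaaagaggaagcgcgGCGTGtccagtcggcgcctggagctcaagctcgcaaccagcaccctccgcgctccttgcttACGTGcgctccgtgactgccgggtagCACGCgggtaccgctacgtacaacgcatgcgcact
Pfkfb3: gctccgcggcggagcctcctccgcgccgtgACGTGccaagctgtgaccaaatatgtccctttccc
Hk3: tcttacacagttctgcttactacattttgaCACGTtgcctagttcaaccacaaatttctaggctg
Ldhb: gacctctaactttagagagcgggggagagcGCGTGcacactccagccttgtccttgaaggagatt
The Ldha stretch lies at chr7:46845654-46845803 on the plus strand, that of Pgk1 at chrX:106186920-106187003 on the plus strand and that of Pgam1 at chr19:41911668-41911817 on the plus strand. The Pfkfb3 stretch lies at chr2:11553955-11554019 on the minus strand, that of Hk3 at chr13:55021507-55021571 on the minus strand and that of Ldhb at chr6:142508049-142508113 on the minus strand. Ldha carries 2 E-boxes in the stretch shown. The second window listed for Ldha holds 1 core, a GCGTG, in its upstream part and no E-box there. The 50 bases after the annotated start were found unbroken in a GENCODE transcript for the second Ldha window and for Pgk1, Pfkfb3, Hk3 and Ldhb, but not for the Ldha window shown or for Pgam1. For Pfkfb3, those of the window shown were found in 1 transcript. Those of its second window, which holds 3 cores upstream and an E-box among them, were found in 10. In Pgk1 the 2 cores stand 150 and 131 bases before its start.

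Whole 300-base windows ran from 250 bases before to 50 after the start. At least 1 of the 2 cores was present in 14 of 20 glycolytic members (70%). Of the 17 citric acid cycle members with a window, 11 held a core (64.7%). The share was 43.8% of 27025 genes, called all genes in this paragraph, which leave out 1 chromosome. ACGTG alone was present in 45% of the glycolytic windows, 23.5% of the citric acid cycle windows and 19.7% of all genes' windows. GCGTG was present in 45%, 58.8% and 32.5%. The E-box was present in 10%, 0% and 7.24%. Both cores are rich in G and C, and so were the windows, with a median of 57.3% G and C in glycolytic members, 62% in citric acid cycle members and 52.7% over all genes. These matches describe letters and were not tested as binding sites.

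Summed over the 20 glycolytic members, transcripts were less abundant in both joint populations than in BMDM, though by little in interstitial F. The sum is weighted to the most abundant genes, and single members went in both directions. Their summed level was 4663, 4513 and 5619 CPM in lining libraries, 3599, 3289 and 9417 CPM in interstitial libraries, and 10910, 10666 and 10469 CPM in BMDM libraries. All 3 lining libraries and interstitial D and E thus lay well under every BMDM library, while interstitial F came close to them. The 18 pyruvate dehydrogenase and citric acid cycle members summed to 2152, 1900 and 1823 CPM in lining libraries, 2047, 1854 and 1994 CPM in interstitial libraries, and 2444, 2430 and 2424 CPM in BMDM libraries. The sum for this second group was lower in every joint library than in every BMDM library, but by less, and interstitial F did not stand out in it. Markers of other cell types also differed between joint and BMDM libraries. The 8 fibroblast genes summed to 269, 287 and 398 CPM in lining libraries, 200, 703 and 419 CPM in interstitial libraries, and 13.4, 12.6 and 15.6 CPM in BMDM. Of these, edgeR called 8 higher in lining and 7 in interstitial macrophages than in BMDM, where 23.1% and 23.4% of all genes were higher. The 7 erythroid genes summed to between 18.3 and 164 CPM in lining, between 13.6 and 426 CPM in interstitial and to at most 4.66 CPM in BMDM libraries. Genes of T, B and NK cells lay between 23.7 and 52.4 CPM in lining, between 30.6 and 53.5 CPM in interstitial and between 1.98 and 2.73 CPM in BMDM libraries. Mast cell and basophil genes lay between 1.45 and 15.8, 13.3 and 22.3, and 0.0432 and 0.298 CPM in the same groups. Their part in the differences from BMDM was not tested.

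**Figure D1:**
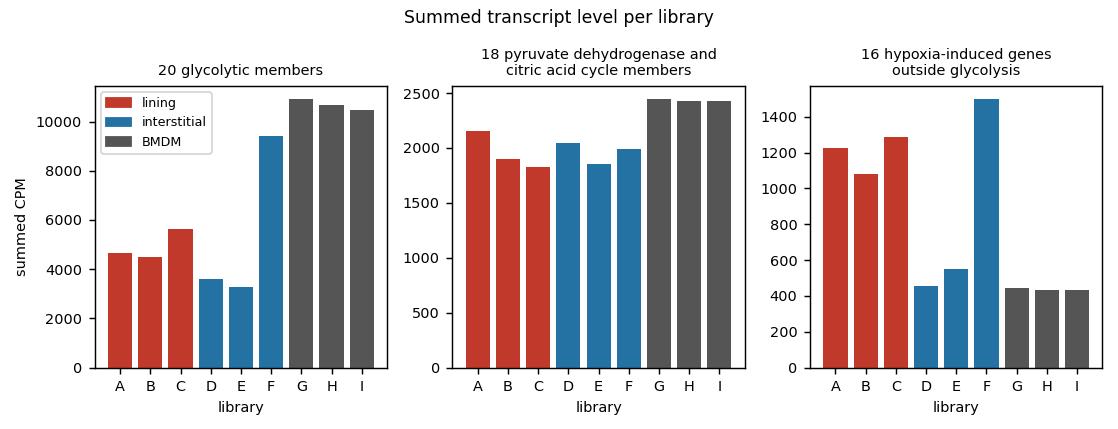
Summed CPM per library (y axis) of the 20 glycolytic members (left), of the 18 pyruvate dehydrogenase and citric acid cycle members (middle) and of 16 hypoxia-induced genes that are no members (right), for lining libraries A to C, interstitial libraries D to F and BMDM libraries G to I. Interstitial F, at 9417 CPM, is the only sorted library whose glycolytic sum approaches those of BMDM, and it is also highest in the hypoxia-induced sum at 1498 CPM.

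Levels of different genes are set side by side per kilobase of annotated exon. On that scale Pkm, the pyruvate kinase gene, had 197 ± 18.1 CPM per kilobase in lining, 195 ± 141 in interstitial and 766 ± 19.6 in BMDM libraries (SD, n = 3 each). Aldoa, the main aldolase, had 231 ± 23.3 in lining, 256 ± 166 in interstitial and 498 ± 21.2 CPM per kilobase in BMDM. Ldha, which encodes the lactate dehydrogenase subunit of muscle type, had 168 ± 29.4, 182 ± 122 and 321 ± 13.9 CPM per kilobase in the same order of groups. At the other end, Eno2, the neuronal enolase, stayed under 2 CPM per kilobase in every group mean, at 0.425 in lining, 0.301 in interstitial and 1.33 in BMDM. Its lining mean came mostly from lining B, with 0, 5.25 and 0.751 CPM in lining A, B and C.

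**Figure D2:**
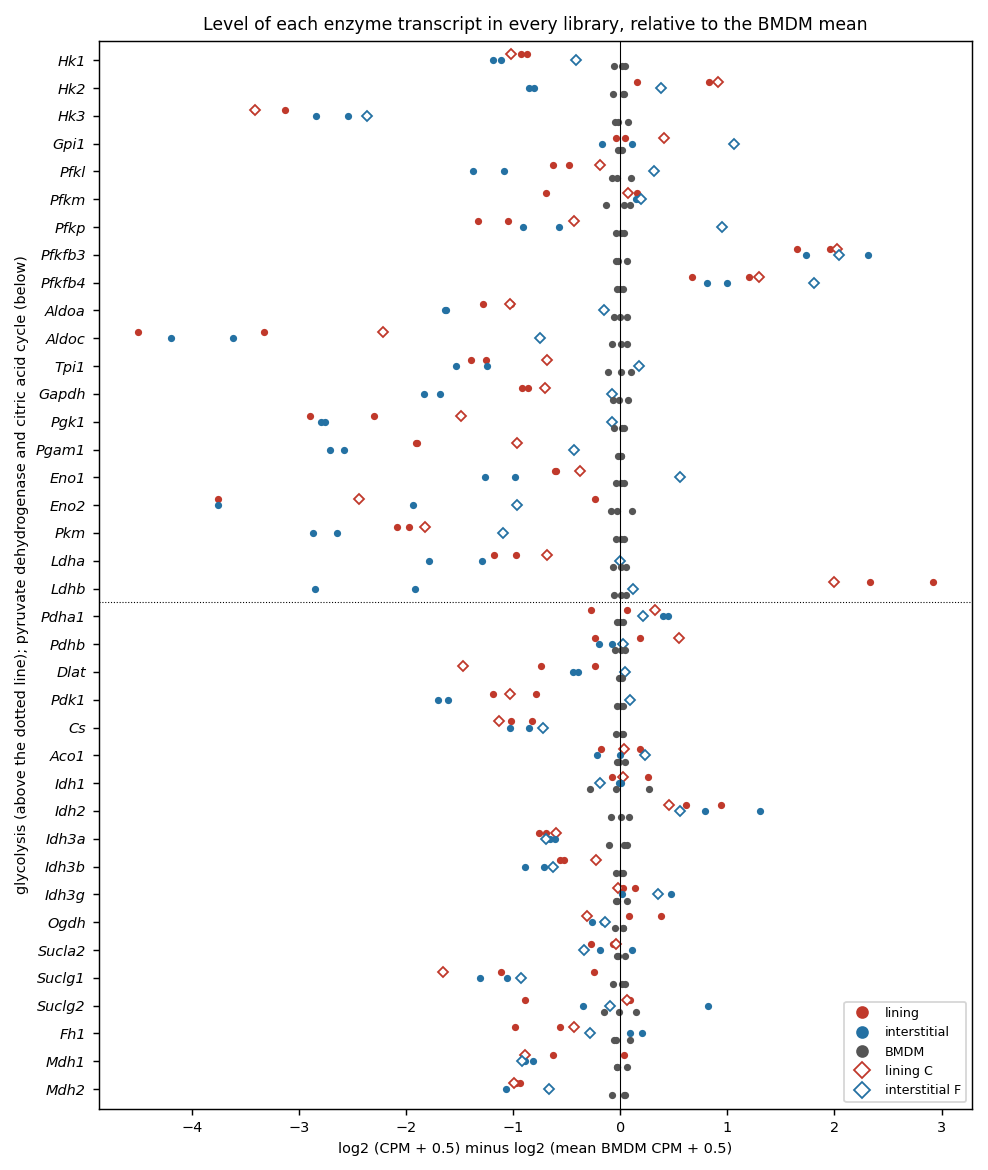
Level of each of the 38 members in every library on the log2 scale, as log2 (CPM + 0.5) minus the same for the BMDM mean (x axis), with members in pathway order (y axis). Points are single libraries of lining, interstitial and BMDM macrophages, and open diamonds are lining C and interstitial F. Hk3, Pkm and Aldoc lie left of 0 in all sorted libraries, Pfkfb3 and Pfkfb4 lie right of 0 in all of them, and Ldhb lies right of 0 in all 3 lining libraries.

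Between the joint populations, 1 of the 38 members was higher in lining than in interstitial macrophages (edgeR quasi-likelihood test, Benjamini-Hochberg adjusted p under 0.05 over all 12610 genes), where 3.74% of all genes tested were higher. Another 1 was lower, where 2.05% of all genes were lower, and 36 did not pass. The median log2 fold change was -0.14 over the members and -0.01 over all genes. Both calls, Ldhb and Hk3, fell in the glycolytic group. Of the 18 pyruvate dehydrogenase and citric acid cycle members, edgeR called 0, limma-voom called 0 and DESeq2 called 1 (lower). An unadjusted edgeR p under 0.05 was reached by 2 of them, 1 in each direction.

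Ldhb encodes the heart-type subunit of lactate dehydrogenase, which as a tetramer favours the turnover of lactate to pyruvate. The gene (ENSMUSG00000030246, GRCm38 chromosome 6, 142490249 to 142507957, minus strand) was at 26.7, 17.6 and 13.9 CPM in lining libraries, at 0, 0.455 and 3.40 CPM in interstitial libraries, and at 3.11, 3.23 and 2.95 CPM in BMDM. Every lining library was above every interstitial and every BMDM library. The log2 fold change was 3.85 ± 0.80 (SE) for lining over interstitial (edgeR adjusted p = 0.0150) and 2.63 ± 0.70 for lining over BMDM (adjusted p = 0.00938). The first call was lost without lining A, without lining B or without interstitial E (highest adjusted p = 0.0666), while the second was kept in all 9 fits that left out 1 library. The 0 in interstitial D, a library in which 3 counts correspond to 1.33 CPM, means that Ldhb was not detectable there at this depth.

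Ldha was at 540, 470 and 662 CPM in lining libraries, 435, 307 and 1060.3 CPM in interstitial libraries, and 1071, 1106 and 1015 CPM in BMDM. Its log2 fold change for lining over interstitial was -0.11 ± 0.38 (adjusted p = 0.916). Within the lactate dehydrogenase transcripts, per kilobase, Ldhb made up 9.43%, 7.31% and 4.23% in lining libraries, 0%, 0.311% and 0.671% in interstitial libraries, and 0.609%, 0.612% and 0.609% in BMDM. Ldha thus dominated everywhere, and the lining libraries alone held more than 1% of the heart-type transcript.

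The hexokinases, which trap glucose in the cell as glucose 6-phosphate, differed most in their mixture. Hk3, the isozyme known from myeloid cells (ENSMUSG00000025877, chromosome 13, 55005985 to 55021385, minus strand), was at 35.4, 43.4 and 35.7 CPM in lining libraries, 65.6, 53.1 and 74.3 CPM in interstitial libraries, and 378, 404 and 371 CPM in BMDM. The 3 ranges did not overlap. Lining was lower than interstitial by a log2 fold change of -0.73 ± 0.16 (edgeR adjusted p = 0.0169), a call lost without lining A or lining C (highest adjusted p = 0.0664). It was also lost by limma-voom (adjusted p = 0.0897), with only the 6 libraries compared and with neither lining C nor interstitial F (0.0679). Both joint populations were lower than BMDM in all 9 fits that left out 1 library, with log2 fold changes of -3.32 ± 0.16 for lining (adjusted p = 2.2e-08) and -2.58 ± 0.16 for interstitial (adjusted p = 1.2e-07).

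Hk2, the inducible isozyme and a known HIF-1 target, ran the other way between the joint populations. The gene (ENSMUSG00000000628, chromosome 6, 82725025 to 82774454, minus strand) was at 82.4, 132 and 140 CPM in lining libraries, 40.8, 42.3 and 96.9 CPM in interstitial libraries, and 75.9, 70.8 and 75.7 CPM in BMDM. Lining and interstitial overlapped through interstitial F, and the log2 fold change of 0.98 ± 0.31 did not pass (adjusted p = 0.0991). With all 9 libraries, DESeq2 (adjusted p = 0.0412) and limma-voom (0.0234) did call Hk2 higher in lining. Without interstitial F the edgeR value was 1.49 ± 0.22 (adjusted p = 0.00251). Every lining library was above every BMDM library for Hk2, with a log2 fold change of 0.68 ± 0.30. That difference did not pass by edgeR (adjusted p = 0.0909) or DESeq2 (0.0695) but did by limma-voom (0.0197). For interstitial over BMDM, Hk2 had -0.30 ± 0.31 (edgeR adjusted p = 0.455). Hk1, the widely expressed isozyme, was at 143, 148 and 133 CPM in lining libraries, 119, 125 and 204 CPM in interstitial libraries, and 274, 260 and 280 CPM in BMDM. It was lower than in BMDM in lining (-0.94 ± 0.19, adjusted p = 0.00152) and interstitial macrophages (-0.86 ± 0.18, adjusted p = 0.00245).

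Per kilobase, Hk2 made up 41.9% ± 6.97 of hexokinase transcripts in lining, 21.4% ± 4.86 in interstitial and 8.36% ± 0.490 in BMDM libraries (SD, n = 3 each). Hk3 made up 22.3% ± 2.15, 39.8% ± 6.35 and 70.2% ± 1.72 in the same groups. The ranges of both shares were separate in all 3 groups, as the plot of isozyme shares shows. The share of Hk2 was 34.4%, 43.2% and 48.2% in lining libraries, and 17.7%, 19.6% and 26.9% in interstitial libraries, so it held apart with interstitial F included.

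**Figure D3:**
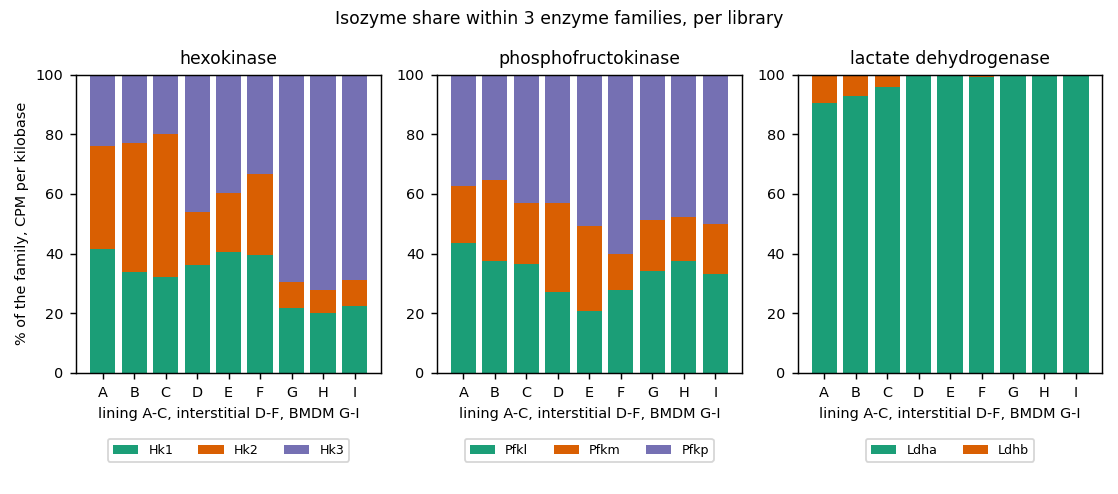
Share of each isozyme (y axis, percent of the family's CPM per kilobase of exon) of hexokinase, phosphofructokinase and lactate dehydrogenase in each library (x axis, lining in A to C, interstitial in D to F and BMDM in G to I). Hk2 has its highest shares in lining libraries (34.4% to 48.2%), Hk3 its highest in BMDM (68.9% to 72.2%), and Ldhb exceeds 1% in lining libraries only.

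Phosphofructokinase commits sugar to glycolysis. Pfkl, its liver-type gene, was at 62.1, 69.0 and 84.5 CPM in lining libraries, 45.2, 36.8 and 120 CPM in interstitial libraries, and 94.6, 103 and 91.0 CPM in BMDM. Pfkp, the platelet-type gene, was at 107, 131 and 200 CPM in lining libraries, 144, 181 and 521 CPM in interstitial libraries, and 271, 263 and 276 CPM in BMDM. Pfkm, the muscle-type gene, was at 12.1, 22.3 and 21.0 CPM in lining libraries, 22.2, 22.7 and 22.9 CPM in interstitial libraries, and 21.3, 18.1 and 20.5 CPM in BMDM. None of these 3 genes passed the edgeR test in any comparison with all libraries in the fit, while limma-voom called Pfkp lower in lining (adjusted p = 0.0453) and Pfkl lower in interstitial macrophages than in BMDM (0.0313). Pfkp had an interstitial over BMDM log2 fold change of 0.06 ± 0.45 with interstitial F and -0.75 without it.

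The bifunctional enzymes Pfkfb3 and Pfkfb4 set the level of fructose 2,6-bisphosphate, the main activator of phosphofructokinase. Both were higher in the joint populations than in BMDM. Pfkfb3 (ENSMUSG00000026773, chromosome 2, 11471433 to 11554077, minus strand) was at 132, 164 and 172 CPM in lining libraries, 210, 140 and 174 CPM in interstitial libraries, and 43.8, 40.6 and 41.1 CPM in BMDM. Every joint library was more than 3 times as high as every BMDM library. The log2 fold changes were 1.90 ± 0.17 for lining over BMDM (edgeR adjusted p = 2.9e-06) and 2.06 ± 0.17 for interstitial over BMDM (adjusted p = 1.5e-06). Pfkfb4 was at 64.0, 92.5 and 99.1 CPM in lining libraries, 80.2, 70.5 and 141 CPM in interstitial libraries, and 40.0, 40.7 and 39.2 CPM in BMDM, with log2 fold changes of 1.10 ± 0.25 (adjusted p = 0.00400) and 1.28 ± 0.25 (adjusted p = 0.00136). All 4 calls were kept in every fit that left out 1 library, and neither gene passed for lining over interstitial (-0.16 ± 0.16 and -0.19 ± 0.25).

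Set against BMDM, 4 members were higher in lining macrophages, where 23.1% of all genes tested were higher, and 12 were lower, where 20.5% of all genes were lower. In interstitial macrophages 3 members were higher than in BMDM, where 23.4% of all genes were higher, and 10 were lower, where 21.3% were lower. The median log2 fold change over the members was -0.58 in both comparisons, and 0.00 and -0.01 over all genes. Both comparisons use the same 3 BMDM libraries, so they are not independent of each other. The higher members were Pfkfb3, Pfkfb4 and Idh2 in both, and Ldhb in lining only, where the difference between the joint populations passed as given above.

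Of the 20 glycolytic members, 5 were lower in lining than in BMDM (Hk1, Hk3, Aldoa, Aldoc and Pkm), where 20.5% of all genes were lower. In interstitial macrophages 4 were lower (Hk1, Hk3, Aldoa and Pkm), where 21.3% of all genes were lower. Both counts are near those shares. Another 3 were higher in lining and 2 in interstitial macrophages, where 23.1% and 23.4% of all genes were higher. Pkm (ENSMUSG00000032294, chromosome 9, 59656368 to 59679375, plus strand) was at 975, 901 and 1082 CPM in lining libraries, 525, 613 and 1791 CPM in interstitial libraries, and 3919, 3726 and 3849 CPM in BMDM. Even interstitial F was well under the lowest BMDM library. The log2 fold changes were -1.96 ± 0.41 for lining (edgeR adjusted p = 0.00425) and -1.97 ± 0.41 for interstitial (adjusted p = 0.00382), and both calls were kept in every fit that left out 1 library. The counts are per gene and do not separate the M1 and M2 splice forms of pyruvate kinase.

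Aldoa was at 714, 594 and 708 CPM in lining libraries, 465, 467 and 1303 CPM in interstitial libraries, and 1512, 1444 and 1389 CPM in BMDM. Its log2 fold changes were -1.11 ± 0.35 (adjusted p = 0.0269) and -0.96 ± 0.35 (adjusted p = 0.0466), but the first call was lost without lining B, lining C or any of the 3 BMDM libraries (highest adjusted p = 0.0768). Among fits that left out 1 library, the second was kept without lining B and without interstitial F alone (highest adjusted p = 0.115). A second Ensembl gene carries the symbol Aldoa, with at most 25 counts in a library, and was not added. Aldoc, the brain-type aldolase, was at 1.45, 3.91 and 9.01 CPM in lining libraries, 3.10, 1.91 and 25.9 CPM in interstitial libraries, and 41.5, 44.0 and 45.8 CPM in BMDM. Its log2 fold change for lining over BMDM was -3.20 ± 0.93 (adjusted p = 0.0222), a call lost without lining A, lining B or any BMDM library (highest adjusted p = 0.0647). For interstitial over BMDM it was -2.08 ± 0.85 (edgeR adjusted p = 0.0770), where DESeq2 (0.0231) and limma-voom (3.8e-04) called Aldoc lower.

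The other members of the later steps of glycolysis had low values in most joint libraries but a wide spread. Gapdh, Pgk1, Pgam1, Eno1, Ldha and Aldoa are known to have near-identical processed pseudogenes. How reads matching several places were counted is not described here, so these levels are less certain. Pgk1, phosphoglycerate kinase, was at 39.8, 60.6 and 106 CPM in lining libraries, 43.9, 42.8 and 283 CPM in interstitial libraries, and 303, 308 and 288 CPM in BMDM. Pgam1, phosphoglycerate mutase, was at 47.0, 46.8 and 90.9 CPM in lining libraries, 26.6, 29.2 and 131 CPM in interstitial libraries, and 175, 179 and 179 CPM in BMDM. Interstitial F was the highest interstitial library for both, and lining C the highest lining library. Lining over BMDM log2 fold changes were -2.12 ± 0.79 for Pgk1 (edgeR adjusted p = 0.0673) and -1.53 ± 0.61 for Pgam1 (adjusted p = 0.0742), and limma-voom called both lower in both joint populations (highest adjusted p = 0.00407), as did DESeq2 for Pgam1 in lining (0.0470). For Tpi1, Gapdh, Eno1 and Ldha they ran from -1.08 to -0.53, and edgeR called none of these genes in any of the 3 comparisons. For lining over BMDM, DESeq2 called Tpi1 and Ldha lower (adjusted p = 0.0114 and 0.0230) and limma-voom called Tpi1, Ldha and Gapdh lower (0.0128, 0.0240 and 0.0444). For interstitial over BMDM, limma-voom called the same 3 genes lower. Gpi1, which turns glucose 6-phosphate into fructose 6-phosphate, had log2 fold changes of 0.15 ± 0.26 for lining and 0.44 ± 0.26 for interstitial over BMDM.

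Interstitial F was the highest of the 3 interstitial libraries in 19 of 20 glycolytic members, the exception being Pfkfb3, and in 34.8% of all genes tested. In the citric acid cycle group it was highest in 9 of 18. Lining C was the highest lining library in 14 of 20 glycolytic members and in 33.4% of all genes. Of 16 hypoxia-induced genes outside glycolysis, interstitial F was highest of its group in 15 and lining C in 11 of theirs. These genes summed to 1226, 1079 and 1285 CPM in lining libraries, 458, 549 and 1498 CPM in interstitial libraries, and 442, 435 and 432 CPM in BMDM. The part of hypoxia in the glycolytic values was not tested.

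Single genes show the same libraries. Vegfa, the endothelial growth factor gene, was at 3.39, 3.34 and 21.4 CPM in lining libraries, 0, 5.37 and 155 CPM in interstitial libraries, and 30.2, 26.5 and 36.1 CPM in BMDM. Slc2a1, the glucose transporter GLUT1, was at 24.7, 38.2 and 65.3 CPM in lining libraries, 2.22, 14.2 and 249 CPM in interstitial libraries, and 99.4, 99.9 and 99.5 CPM in BMDM. Egln3, a HIF-induced prolyl hydroxylase, was at 0.485, 0.477 and 13.1 CPM in lining libraries, 0, 0.728 and 42.3 CPM in interstitial libraries, and 3.63, 3.38 and 2.35 CPM in BMDM. These 3 genes were chosen after their values were seen. Lining C and interstitial F were the highest libraries of their groups for all 3.

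Some lists of other cell markers were also highest in interstitial F, and others were not. A list of 7 dendritic cell genes summed to 503 CPM in interstitial F against 152 and 132 CPM in interstitial D and E, and to 3.88, 61.9 and 125 CPM in the lining libraries A, B and C. In interstitial F the integrin gene Itgax was at 411 CPM, Cd209a at 32.5, Ccr7 at 23.2, Zbtb46 at 22.1, Flt3 at 13.4, Xcr1 at 0.850 and Clec9a at 0 CPM. A list of 7 endothelial genes summed to 136 CPM in interstitial F, against 60.7 and 45.9 CPM in interstitial D and E, and 140, 139 and 146 CPM in BMDM. The 10 neutrophil genes summed to 84.3 CPM in interstitial F, 0 in D and 78.6 in E. Skeletal muscle (28.2 CPM) and mast cell and basophil sums (22.3) were also highest in F, against 24.3 and 19.1 in E. Interstitial F was not highest in the fibroblast, erythroid, or T, B and NK cell sums. It stood at 419, 29.3 and 30.6 CPM, against 200, 426 and 42.6 in D and 703, 13.6 and 53.5 in E. The 9 macrophage and sort genes summed to 13451 CPM in interstitial F against 23053 and 17395 CPM in interstitial D and E. Their part in the glycolytic values of this library was not tested.

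Without interstitial F, 8 members were higher in lining than in interstitial macrophages, where 3.98% of all genes tested were higher, and 2 were lower (Hk3 and Fh1), where 2.86% were lower. The 8 were Ldhb (5.69), Hk2 (1.49), Pgam1 (1.09), Gapdh (0.90), Pfkl (0.80), Pkm (0.76), Eno1 (0.56) and Aldoa (0.50), given with their log2 fold changes. The median over the glycolytic members was then 0.56, against -0.15 with all 9 libraries. With interstitial F in the fit, the log2 fold changes of Pgam1, Eno1 and Aldoa were -0.04, -0.20 and -0.15, so their direction rests on this library.

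The same omission moved the counts against BMDM. Without interstitial F, 21 members were lower in lining than in BMDM, where 23.7% of all genes were lower, and 5 higher, where 23.3% were higher. For interstitial over BMDM, 22 members were lower, where 22.3% of all genes were lower, and 3 higher, where 22.4% were higher. Of the 20 glycolytic members, 13 were then lower in lining and 15 in interstitial macrophages, against 8 and 7 of the 18 citric acid cycle members. All groups share 1 estimate of the spread, so the lining over BMDM count also moves when an interstitial library is left out. It was 19 without interstitial D and 6 without BMDM H.

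**Figure D4:**
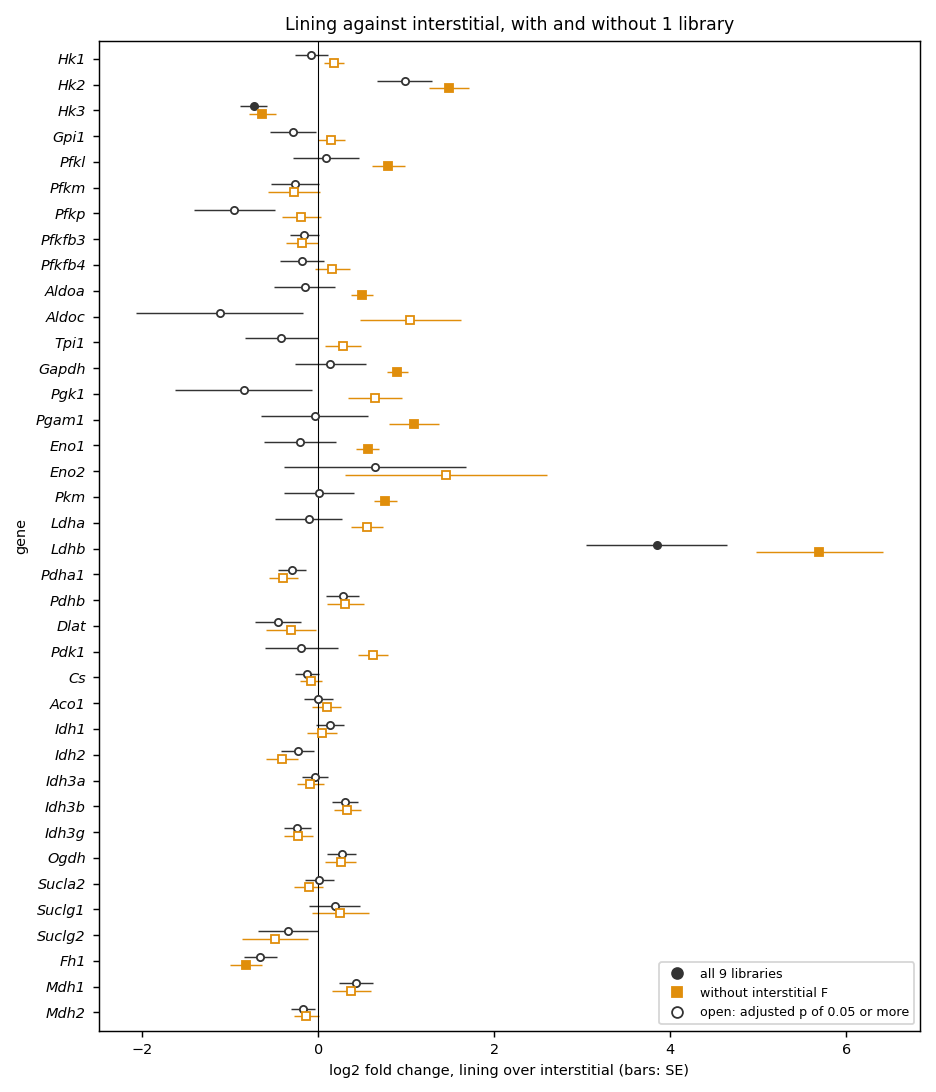
Log2 fold change of each of the 38 members for lining over interstitial (x axis, bars are SE), with all 9 libraries (circles) and without interstitial F (squares), where filled symbols have an edgeR adjusted p under 0.05. Ldhb and Hk3 are filled in both fits, and 8 members are filled to the right of 0 without interstitial F. In the lower part of the plot Pdk1 moves from -0.19 to 0.62, open in both fits.

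Among the pyruvate dehydrogenase members, Pdha1 and Pdhb, which encode the E1 subunits, had log2 fold changes between -0.30 and 0.36 in the 3 comparisons and no edgeR call, though DESeq2 (adjusted p = 0.0322) and limma-voom (0.0242) called Pdha1 higher in interstitial macrophages than in BMDM. Dlat, the E2 subunit, was lower in lining than in BMDM by -0.71 ± 0.26 (edgeR adjusted p = 0.0439), a call lost without lining A, lining C, interstitial E or any BMDM library (highest adjusted p = 0.102). Pdk1, the kinase that switches pyruvate dehydrogenase off and a known HIF-1 target, was at 62.6, 47.1 and 52.6 CPM in lining libraries, 32.8, 35.0 and 115 CPM in interstitial libraries, and 108, 106 and 110 CPM in BMDM. It passed in no comparison by edgeR (adjusted p = 0.855, 0.0713 and 0.127 for lining over interstitial, lining over BMDM and interstitial over BMDM). DESeq2 (adjusted p = 0.0346) and limma-voom (0.0106) called it lower in lining than in BMDM, and limma-voom also in interstitial macrophages (0.00653). Interstitial F was at the BMDM level, while interstitial D and E were the lowest libraries of all.

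The entry step of the cycle was lower in both joint populations. Cs, citrate synthase, was at 203, 177 and 164 CPM in lining libraries, 199, 177 and 218 CPM in interstitial libraries, and 367, 364 and 350 CPM in BMDM, with log2 fold changes of -0.99 ± 0.13 (adjusted p = 8.4e-05) and -0.86 ± 0.13 (adjusted p = 0.00022). Mdh2, the mitochondrial malate dehydrogenase, was at 127, 123 and 121 CPM in lining libraries, 152, 115 and 153 CPM in interstitial libraries, and 248, 250 and 229 CPM in BMDM. Its log2 fold changes were -0.97 ± 0.14 (adjusted p = 0.00013) and -0.80 ± 0.14 (adjusted p = 0.00052). Interstitial F did not stand apart in either gene, and all 4 calls were kept in every fit that left out 1 library.

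The subunits of the NAD-dependent isocitrate dehydrogenase did not move as 1 block. Idh3a, the catalytic subunit, was lower than in BMDM in lining (-0.69 ± 0.14) and interstitial macrophages (-0.66 ± 0.14), and so was Idh3b (-0.44 ± 0.14 and -0.74 ± 0.14), though the lining call of Idh3b was lost without lining B or any BMDM library (highest adjusted p = 0.0900). Idh3g, with log2 fold changes of 0.05 ± 0.15 and 0.29 ± 0.15, passed in neither. Idh2, the NADP-dependent mitochondrial enzyme, went the other way, with 206, 163 and 146 CPM in lining libraries, 264, 185 and 158 CPM in interstitial libraries, and 107, 113 and 101 CPM in BMDM. Every joint library was above every BMDM library. The log2 fold changes were 0.68 ± 0.19 for lining (edgeR adjusted p = 0.0118, lost without lining A or BMDM I, highest 0.0722) and 0.92 ± 0.19 for interstitial (adjusted p = 0.00197). Idh2 made up 30.3% ± 3.07, 34.7% ± 5.23 and 20.4% ± 2.29 of isocitrate dehydrogenase transcripts per kilobase in lining, interstitial and BMDM libraries.

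Further round the cycle, Suclg1, the alpha subunit of succinyl-CoA ligase, was at 66.4, 36.3 and 24.8 CPM in lining libraries, 37.7, 31.6 and 41.4 CPM in interstitial libraries, and 75.5, 81.6 and 80.0 CPM in BMDM. It was lower in lining by -0.92 ± 0.28 (adjusted p = 0.0192, lost without lining B, lining C or BMDM H, highest 0.0727) and in interstitial by -1.11 ± 0.28 (adjusted p = 0.00670). The beta subunits Sucla2 and Suclg2 passed in no comparison. Fh1, fumarase, was lower in lining than in BMDM by -0.64 ± 0.19 (adjusted p = 0.0150, lost without BMDM H, 0.0614), and stood at 0.02 ± 0.18 for interstitial over BMDM. For lining over interstitial Fh1 had -0.66 ± 0.19 (adjusted p = 0.0664), with no overlap between the groups. Mdh1, the cytosolic malate dehydrogenase, was lower in interstitial macrophages than in BMDM (-0.88 ± 0.19, adjusted p = 0.00305). Ogdh, the E1 subunit of oxoglutarate dehydrogenase, and the cytosolic enzymes Aco1 and Idh1 had log2 fold changes between -0.19 and 0.27 in the 3 comparisons, and none passed.

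Further genes of the same routes moved with the members only in part. Over all genes tested, 23.1% were higher and 20.5% lower in lining than in BMDM, and 23.4% and 21.3% in interstitial macrophages. Of 21 tested pyruvate dehydrogenase and citric acid cycle genes outside the members, 3 were higher and 10 lower in lining than in BMDM. In interstitial macrophages 5 were higher and 9 lower than in BMDM. Me1, the cytosolic malic enzyme, had log2 fold changes of -4.12 ± 0.50 for lining and -4.95 ± 0.52 for interstitial, and Pdk2, another pyruvate dehydrogenase kinase, 1.91 ± 0.30 and 2.31 ± 0.30. Pdk2 was not the extreme, as values in this list reached 6.05 for lining and 4.36 for interstitial over BMDM. Me2, the mitochondrial malic enzyme, was the 1 gene of this list called between the joint populations, lower in lining by -0.99 ± 0.22 (adjusted p = 0.0194). Of 12 further genes of the glycolytic route, 5 were higher and 1 lower in lining than in BMDM, and 4 were higher and 1 lower in interstitial than in BMDM. Their median log2 fold changes were 0.32 and 0.21, against -0.91 and -0.84 over the 20 glycolytic members. The higher genes included Fbp1, a gluconeogenic enzyme, in both comparisons. Fbp1 was at 4.36, 0.573 and 15.4 CPM in lining libraries and 0, 1.82 and 23.2 CPM in interstitial libraries, highest in lining C and interstitial F. In BMDM it was at 0.0432, 0.0497 and 0.184 CPM. Interstitial D, with 0, overlapped BMDM, and limma-voom did not call Fbp1 for lining over BMDM (adjusted p = 0.0606). Without interstitial F, these 12 gave 2 higher and 2 lower for interstitial over BMDM, where 22.4% of all genes were higher and 22.3% lower.

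The pentose phosphate pathway, which draws on glucose 6-phosphate to make NADPH and ribose, was lower in both joint populations. Of 7 genes tested, 6 were lower in lining and 5 in interstitial macrophages than in BMDM, where 20.5% and 21.3% of all genes were lower. Between lining and interstitial, edgeR called 0 (limma-voom 0, DESeq2 1 lower, and 2 at an unadjusted edgeR p under 0.05). G6pdx, its entry enzyme, was at 127, 120 and 105 CPM in lining libraries, 128, 110 and 122 CPM in interstitial libraries, and 359, 340 and 349 CPM in BMDM. Its log2 fold changes were -1.58 ± 0.13 and -1.54 ± 0.13, and those of Pgd were -1.55 ± 0.18 and -1.76 ± 0.18. All 19 cell cycle genes tested were also lower in both joint populations than in BMDM, summing to 503, 634 and 726 CPM in lining libraries, 425, 512 and 739 CPM in interstitial libraries, and 5554, 5412 and 5516 CPM in BMDM. The part of cell division in the enzyme values was not tested.

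Among 15 tested carriers of glucose, lactate and mitochondrial shuttles, 2 were higher in lining than in interstitial macrophages, where 3.74% of all genes were higher. They were Slc25a1, the mitochondrial citrate carrier (0.86 ± 0.20, adjusted p = 0.0257), and Slc25a11, the oxoglutarate carrier (0.67 ± 0.14, adjusted p = 0.0169). Against BMDM, 1 carrier was higher and 6 lower in lining, where 23.1% of all genes were higher and 20.5% lower. In interstitial macrophages 1 was higher and 5 lower, where 23.4% of all genes were higher and 21.3% lower. Without interstitial F, 6 carriers were higher and 1 lower in lining than in interstitial macrophages (3.98% and 2.86% of all genes). In that fit 4 were higher and 7 lower in lining than in BMDM (23.3% and 23.7% of all genes). For interstitial over BMDM, 1 was higher and 10 lower (22.4% and 22.3% of all genes). Slc16a1, the lactate transporter MCT1, had a log2 fold change of -1.86 ± 0.37 for lining, and Slc25a13, an aspartate-glutamate carrier, -1.71 ± 0.32 for lining and -1.34 ± 0.31 for interstitial.

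Both HIF alpha subunits were higher in lining than in interstitial macrophages. Hif1a, which encodes HIF-1 alpha, was at 191, 201 and 189 CPM in lining libraries, 97.1, 131 and 122 CPM in interstitial libraries, and 198, 169 and 203 CPM in BMDM, with a lining over interstitial log2 fold change of 0.73 ± 0.14 (edgeR adjusted p = 0.0103). Epas1, which encodes HIF-2 alpha, was at 27.2, 18.04 and 23.3 CPM in lining libraries, 5.32, 5.37 and 6.58 CPM in interstitial libraries, and 16.1, 17.0 and 19.2 CPM in BMDM, with 1.97 ± 0.30 (adjusted p = 0.0022). Interstitial F did not stand apart in either. These were the 2 of 20 tested regulators called between the joint populations, where 3.74% of all genes were higher in lining. Of the 16 hypoxia-induced genes, Pdgfb, a platelet-derived growth factor gene, was the 1 called between the joint populations (1.495 ± 0.25, adjusted p = 0.0037). Against BMDM, 8 of these genes were higher in lining and 6 in interstitial macrophages, where 23.1% and 23.4% of all genes were higher. Without interstitial F, 3 were higher in lining than in interstitial macrophages, where 3.98% of all genes were higher. In that fit 8 were higher and 1 lower in lining than in BMDM (23.3% and 23.7% of all genes). For interstitial over BMDM, 5 were higher and 2 lower (22.4% and 22.3% of all genes). The median log2 fold change for interstitial over BMDM was then 0.06, against 1.26 with all libraries.

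All 12 immediate early genes tested were higher in both joint populations than in BMDM, a response known to follow tissue dissociation. Over all genes tested, 23.1% were higher in lining and 23.4% in interstitial macrophages. They summed to 7448, 12217 and 11202 CPM in lining libraries, 6330, 12470 and 10956 CPM in interstitial libraries, and 494, 523 and 491 CPM in BMDM. Their part in the differences from BMDM, such as that of Pfkfb3, was not tested, and their sums overlapped between lining and interstitial libraries.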

How the data were processed

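Bulk RNA sequencing of 9 libraries gave 1 deposited table of raw counts per Ensembl gene. Per the submitters' processing notes, reads were processed with bcl2fastq 2.17.1.14, cutadapt 1.15, STAR 2.5.4a and featureCounts 1.6.1 on GRCm38, and DESeq2 1.20.0 was used. The deposited counts were taken as the authors gave them. Symbols matched 53274 genes, and 191 had none. The table's exon length (all annotated exons) served for CPM per kilobase.

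Genes with too few counts were removed with filterByExpr (edgeR 4.0.16, minimum 10, total 15). CPM and tests use TMM scaling. A quasi-likelihood model of all 9 libraries with group means gave 3 two-sided contrasts, adjusted by Benjamini-Hochberg over 12610 genes and called under 0.05. The sequences of promoters are from RefSeq. The members and lists were chosen with earlier results of these data known. Values per library are given for members called between lining and interstitial, the most changed called members against BMDM, and hexokinases, phosphofructokinases, lactate dehydrogenases, Pfkfb3, Pfkfb4 and Pdk1. Pgk1, Pgam1, Cs and Mdh2 were added after their values were seen. From each other list, genes called between lining and interstitial and up to 3 with the largest changes against BMDM could be named. The model code was tested on simulated data. Precision follows depth: 3 counts equal 0.130 to 1.45 CPM. Alternatives were DESeq2 1.42.0, limma-voom 3.58.1, other scalings and filters, only the 6 libraries compared, and libraries left out.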

Additional observations from a re-analysis of the deposited data

How the results depend on the processing

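No paired analysis was run, because the libraries carry 9 different letters and share no replicate number. The labels do not say whether lining and interstitial libraries were sorted from the same animals, so a pairing between them is unknown. Over all alternatives, 1767 member values kept their side of the threshold, 47 lost a call, 116 gained one and 7 reversed. Values near 0 that passed in neither fit could change sign, such as Aco1 for lining over BMDM in 12 of 17 alternatives and Pkm for lining over interstitial in 8 of 17. The reversals rest on interstitial F: for lining over interstitial, without it, Aldoa had 0.50, Pgam1 1.09 and Eno1 0.56, and with neither lining C nor interstitial F (an alternative chosen after seeing the data) Pgam1 had 0.73 and Eno1 0.50. For interstitial over BMDM, Pfkp had -0.75 and -0.73 in the same fits. Fits that left out 1 library ran from -0.41 to 0.50 for Aldoa, -0.42 to 1.09 for Pgam1, -0.51 to 0.56 for Eno1 and -0.75 to 0.33 for Pfkp.

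Members higher in lining than in interstitial macrophages numbered 1, with 2 by DESeq2, 2 by limma-voom and 7 with neither lining C nor interstitial F. The lower count was 1, with 2 by DESeq2, 0 by limma-voom, 2 with plain library totals and 0 with only the 6 libraries compared. Lower members in lining than in BMDM numbered 12, with 19 by limma-voom, 21 with only the 6 libraries compared and 21 with neither lining C nor interstitial F. Lower members in interstitial than in BMDM numbered 10, with 20 by limma-voom and 23 with neither library. Leaving out 1 library at a time gave 0 to 8 higher and 0 to 2 lower for lining over interstitial, 3 to 5 higher and 6 to 21 lower for lining over BMDM, and 3 to 4 higher and 9 to 22 lower for interstitial over BMDM. The cause of the other moves was not tested. With plain library totals the median of all genes for lining over BMDM was -0.11, and with no filter it was -0.17 there and -0.19 for interstitial over BMDM, so changes are read relative to it. The shallow sorted libraries limit the low members, Ldhb, Aldoc and Eno2.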
